A study of Mus musculus with 2 samples.

Results

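Natural killer (NK) cells read their targets with paired sets of activating and inhibitory surface receptors, and 9 of the genes that encode such receptors or their relatives are described here: Ncr1, Klrb1c, Klrc1, Klrc2, Klrd1, Klre1, Klri2, Klrk1 and Klrg1. They were taken by symbol from the gene list of the deposited matrices, where all 9 were found among 27998 listed genes, of which 16094 had at least 1 UMI (unique molecular identifier, 1 per captured RNA molecule) in a cell. Their UMIs were read in single peripheral blood mononuclear cells (PBMC) of 2 libraries, made by droplet-based 3' RNA sequencing after a sort of live cells without the red cell antigen Ter119. The mutant library came from MvkV377I/del91 mice, with 1 V377I and 1 del91 allele of the mevalonate kinase gene, and the control library from wildtype (Mvk+/+) mice. Both groups were female C57Bl/6 mice aged 10 weeks, with the blood of 3 mice pooled per genotype. With 1 library a genotype, the genotype, the pool of mice and the library cannot be told apart, no test of the genotype is possible, and every 95% interval covers counting error only. The 3' tags of Mvk do not check these alleles and are not used here.

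Most of these genes lie in the NK gene complex and encode C-type lectin-like proteins. NKG2A (Klrc1) is an inhibitory and NKG2C (Klrc2) an activating receptor, each of which reaches the surface as a pair with CD94 (Klrd1) and binds the non-classical class I molecule Qa-1, the product of H2-T23. NKG2D (Klrk1) is an activating receptor for stress-induced class I-like ligands and signals through the adaptors of Hcst and Tyrobp, while NK1.1 (Klrb1c) and NKp46 (Ncr1, an immunoglobulin-like receptor) are activating receptors that are used to recognise mouse NK cells. Klre1 and Klri2 encode subunits of another heterodimer of the complex, and Klrg1 encodes an inhibitory receptor for cadherins that marks mature NK cells and some effector T cells.

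The libraries held 14513059 (mutant) and 15385199 UMIs (wildtype). Cells were kept with at least 800 UMIs, at least 200 genes and at most 10% mitochondrial UMIs, which left 4190 mutant and 5225 wildtype cells with medians of 1968 and 2036 UMIs. The libraries shared 28 of these cell barcodes, 0.668% of the mutant cells. Types were set from UMIs of marker genes that exclude the 9 receptors, and NK-like cells were those with at least 5 UMIs of Gzma, Prf1, Tyrobp, Fcer1g, Klra4, Klra8, Klra9, Eomes and S1pr5 and no Cd3 UMI. They numbered 131 in the mutant (3.13% of cells, 2.62 to 3.70) and 618 in the wildtype library (11.8%, 11.0 to 12.7), and all 9 markers had UMIs in each. They held 34.6% of the mutant and 48.0% of the wildtype receptor UMIs found in cells, and cells that met no type's rule held 30.7% and 29.1%. Of the 1527 and 5145 receptor UMIs in these untyped cells, only 340 and 629 were in cells below 5 NK marker UMIs. Untyped cells at that minimum with 1 Cd3 UMI (79 mutant, 227 wildtype) held 674 and 2770. The gate thus leaves out many cells with NK markers, and the NK-like counts and shares depend on it. The median NK-like cell held 1932 UMIs (mutant) and 1594.5 UMIs (wildtype). Mutant NK-like cells also carried more red cell RNA (6842 against 287 CPM, which are UMIs per 1000000 UMIs of the class) and platelet RNA (475 against 106 CPM), and wildtype NK-like cells carried neutrophil RNA (692 CPM, with 0 UMIs in the mutant, which allows up to 11.1 CPM). The part of the neutrophil RNA in the results was not tested, and settings that bear on red cell and platelet RNA are given with the ratios.

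All 9 receptor genes had their highest level in NK-like cells, in both libraries. Ncr1 stood at 846 CPM (740 to 963) in mutant and 1206 CPM (1140 to 1273) in wildtype NK-like cells, and Klrb1c at 787 (684 to 900) and 1171 CPM (1106 to 1238). For both genes the intervals of the libraries did not overlap. Among the NKG2 genes, Klrc1 stood at 330 (265 to 406) and 475 CPM (434 to 518), Klrc2 at 382 (312 to 464) and 482 CPM (441 to 526), and their partner Klrd1 at 1288 (1156 to 1430) and 1522 CPM (1449 to 1598). Klrk1 stood at 1124 (1001 to 1258) and 1250 CPM (1183 to 1319), Klre1 at 1061 (942 to 1192) and 1243 CPM (1177 to 1312), Klri2 at 330 (265 to 406) and 394 CPM (357 to 433) and Klrg1 at 234 (180 to 299) and 241 CPM (212 to 273). Of these 7 genes Klrc1 and Klrd1 had intervals that lay apart, and the others overlapped between the libraries. CPM values are not scaled for the length or capture of an RNA, so they order the types for 1 gene and not the genes.

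**Figure D1:**
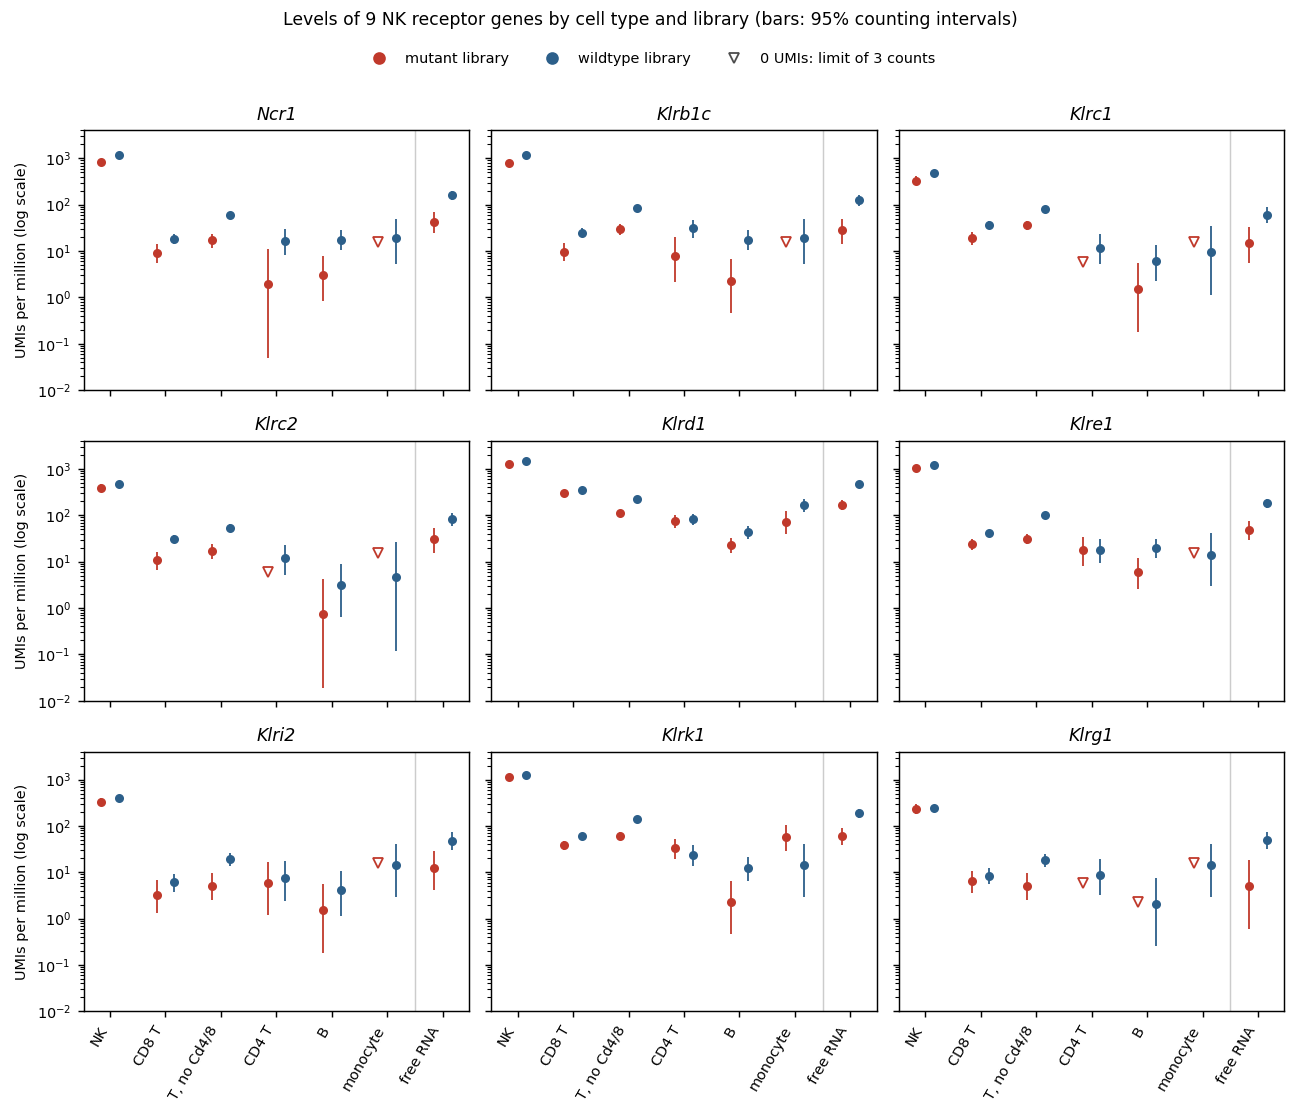
Levels of the 9 receptor genes (y axis, CPM, log scale) in each cell type and in free RNA (x axis), for the mutant (red) and the wildtype library (blue), with 95% counting intervals. Open triangles are the limit of 3 counts where no UMI was found, and in every panel the NK-like values lie above those of the other types.

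The drop to the next type was 4.16-fold or more for each gene, and Klrd1 had the smallest in both libraries. In the wildtype library Ncr1 was 20.3-fold (16.9 to 24.4) higher in NK-like cells than in the next type, Klrk1 8.74-fold (7.73 to 9.91) and Klrc1 5.98-fold (5.03 to 7.14). Klrd1 was 4.36-fold higher (4.04 to 4.71) than in CD8 T-like cells there and 4.16-fold (3.65 to 4.75) in the mutant library. In the wildtype library 8 genes had as their second type the T-like cells in which no Cd4 or Cd8 UMI was found, a class added after the data were seen, and 6 of these 8 lay beyond counting error above the third. Below that the order was mostly within counting error, as for wildtype Ncr1, which ran from 18.9 CPM in monocyte-like to 16.3 CPM in CD4 T-like cells.

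RNA outside cells gives a background to these lower levels. Barcodes with at most 20 UMIs held 395464 (mutant) and 460573 UMIs (wildtype), and in this free RNA the 9 genes summed to 412 CPM (351 to 481) and 1355 CPM (1251 to 1465), a ratio of 0.304 (0.254 to 0.362). B-like cells, which should lack these receptors and held a median of 1525.5 and 1511 UMIs, had no UMI of the 9 genes in 93.4% of 788 mutant and 82.2% of 591 wildtype cells. The rule for B-like cells allows at most 1 NK marker UMI, so this background may be a low one. Their level of each gene was 0 to 13.4% (mutant) and 3.78% to 14.3% (wildtype) of that in free RNA. In these B-like cells Ncr1 was found in 0.508% of mutant and 2.71% of wildtype cells, against 74.8% (66.5 to 82.0) and 80.3% (76.9 to 83.3) of NK-like cells. CD4 T-like cells showed Ncr1 in 0.397% of 252 mutant and 2.89% of 311 wildtype cells, at medians of 1981 and 2059 UMIs. Klrc1 and Klrc2 had 0 UMIs in mutant CD4 T-like cells, which allows up to 5.84 CPM (3 counts), and 8 UMIs each in the wildtype ones.

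The genes sit on 2 chromosomes. On the mouse build GRCm38, 8 of them lie on chromosome 6 and Ncr1 lies on chromosome 7 at 4337724 to 4345164, plus strand. The chromosome 6 genes other than Klrg1 span 962 kb, from Klrb1c (128778485 to 128789215, minus strand) to Klri2 (129729041 to 129740484, minus strand). Between them lie Klre1 (129577905 to 129585827) and Klrd1 (129591782 to 129598775) on the plus strand and Klrk1 (129610323 to 129623864), Klrc2 (129647496 to 129660689) and Klrc1 (129666015 to 129678973) on the minus strand. Klrg1 lies apart at 122270596 to 122282882, 6496 kb before Klrb1c. Klrc1 and Klrc2 are near-identical at places: of all 98-base stretches in the last 500 bases of their annotated transcripts, 18.1% for Klrc1 and 5.96% for Klrc2 occur in another gene, mostly in each other, and 10.7% for Klrb1c occur in Gm44511 or Klrb1a. None were found for the other 6 genes. How reads shared by such copies were counted is not given in the sources used here, so the split between Klrc1 and Klrc2 carries that uncertainty.

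Promoters were read because the 9 levels rise together in NK-like cells. RefSeq (GRCm38.p6) gave promoter windows, 250 bases before to 50 after the start, for 6 of the 9 genes: Ncr1, Klrb1c, Klrc1, Klrc2, Klre1 and Klrk1. Each was searched on both strands for 3 words known as cores of lymphocyte factor motifs: TGTGGT (Runx), GGTGTGA (T-box) and AGGAAG (Ets). The Runx word was in the first window of 6 of 6 genes, against 16.8% of 32851 windows of the same length. The T-box word was in 0 of 6 (3.98% of windows) and the Ets word in 1 of 6 (35.4%). The windows of Ncr1 and of 3 of the lectin-like receptor genes are shown 5′ to 3′ along the gene, with matches in capitals, ACCACA being the Runx word on the other strand:
Ncr1 promoter, chr7:4337465-4337764, plus strand: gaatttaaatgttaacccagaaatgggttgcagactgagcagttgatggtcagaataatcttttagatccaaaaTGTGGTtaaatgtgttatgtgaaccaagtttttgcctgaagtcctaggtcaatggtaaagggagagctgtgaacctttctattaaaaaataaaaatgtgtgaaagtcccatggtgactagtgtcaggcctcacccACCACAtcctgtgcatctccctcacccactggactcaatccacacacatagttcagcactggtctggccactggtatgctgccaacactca
Klrb1c promoter, chr6:128788592-128788891, minus strand: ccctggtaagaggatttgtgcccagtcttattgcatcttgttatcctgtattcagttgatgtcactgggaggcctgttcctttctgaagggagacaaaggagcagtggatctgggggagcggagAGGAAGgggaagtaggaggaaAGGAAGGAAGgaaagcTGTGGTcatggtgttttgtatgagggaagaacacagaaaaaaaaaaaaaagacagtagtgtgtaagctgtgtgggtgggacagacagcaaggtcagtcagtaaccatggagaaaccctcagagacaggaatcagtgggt
Klrc1 promoter, chr6:129678924-129679223, minus strand: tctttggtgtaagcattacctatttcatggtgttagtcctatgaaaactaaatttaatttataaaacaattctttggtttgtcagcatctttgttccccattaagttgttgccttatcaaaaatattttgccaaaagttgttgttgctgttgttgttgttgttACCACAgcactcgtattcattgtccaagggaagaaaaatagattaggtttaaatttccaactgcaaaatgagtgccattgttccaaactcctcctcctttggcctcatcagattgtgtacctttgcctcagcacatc
Klrk1 promoter, chr6:129623815-129624114, minus strand: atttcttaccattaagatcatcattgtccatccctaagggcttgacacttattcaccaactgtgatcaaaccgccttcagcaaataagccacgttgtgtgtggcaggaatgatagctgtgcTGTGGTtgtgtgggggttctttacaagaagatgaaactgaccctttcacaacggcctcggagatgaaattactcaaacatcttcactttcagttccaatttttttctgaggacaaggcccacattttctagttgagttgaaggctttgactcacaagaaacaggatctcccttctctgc

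In Ncr1 the Runx words begin 176 and 41 bases before the start. Klrb1c has 1 at 89 bases, with Ets words at 126, 105 and 101 bases of which the last pair share letters. Klrc1 has 1 at 87 and Klrk1 1 at 129 bases. Of the windows not shown, Klrc2 has the word at 36 and 9 bases and Klre1 at 229 bases, while the window of a second listed start of Klre1 has no Runx word and 1 Ets word. A match of 6 letters is a description of the sequence and not a site.

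NK-like cells were compared between the libraries first. Of the 9 genes, 4 were lower in the mutant, which here means a mutant to wildtype ratio of 0.8 or less, 0 were higher by the same fold, and all 9 ratios were below 1. Over all 3533 genes with at least 50 UMIs in this class, 23.7% were lower and 13.9% higher, and 12.1% were lower among the genes with at least 200 UMIs, a minimum that all 9 reach. The 4 genes were the NK1.1 gene Klrb1c at 0.672 (0.578 to 0.778), the NKG2A gene Klrc1 at 0.696 (0.549 to 0.873), the NKp46 gene Ncr1 at 0.702 (0.607 to 0.809) and the NKG2C gene Klrc2 at 0.793 (0.635 to 0.981). Klrd1 at 0.846 (0.751 to 0.951) and Klre1 at 0.854 (0.749 to 0.971) had intervals below 1 but did not reach the fold. Klri2 at 0.839 (0.660 to 1.06), Klrk1 at 0.900 (0.791 to 1.02) and Klrg1 at 0.970 (0.724 to 1.28) had intervals that include 1. The median log2 ratio of the 9 was -0.25, and that of all measured genes -0.04. No gene reached 1.5-fold. With each cell thinned to 800 UMIs, 7 of the 9 genes were lower, where 27.0% of all measured genes were.

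The 3 genes lowest in ratio had values of 0.580 to 0.796 under the 15 alternative settings tried, while Klrc2 ranged from 0.759 to 0.827 and passed the fold in some settings only. With erythroid, ribosomal and mitochondrial genes left out of the totals, in a setting added after seeing the data, 3 of the 9 genes passed the fold. With the 5 mutant and 3 wildtype NK-like cells rich in platelet or red cell UMIs left out, a setting added likewise, Ncr1 was at 0.705, Klrb1c at 0.690 and Klrc1 at 0.706, and Klrc2 at 0.821 did not pass. Among the NK-like cells, 7 mutant and 9 wildtype ones showed none of the 9 genes, and all of these had under 3 UMIs of the NK markers other than Tyrobp and Fcer1g. With both of these left out of the gate, Ncr1 was at 0.719, Klrb1c at 0.692 and Klrc1 at 0.734.

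**Figure D2:**
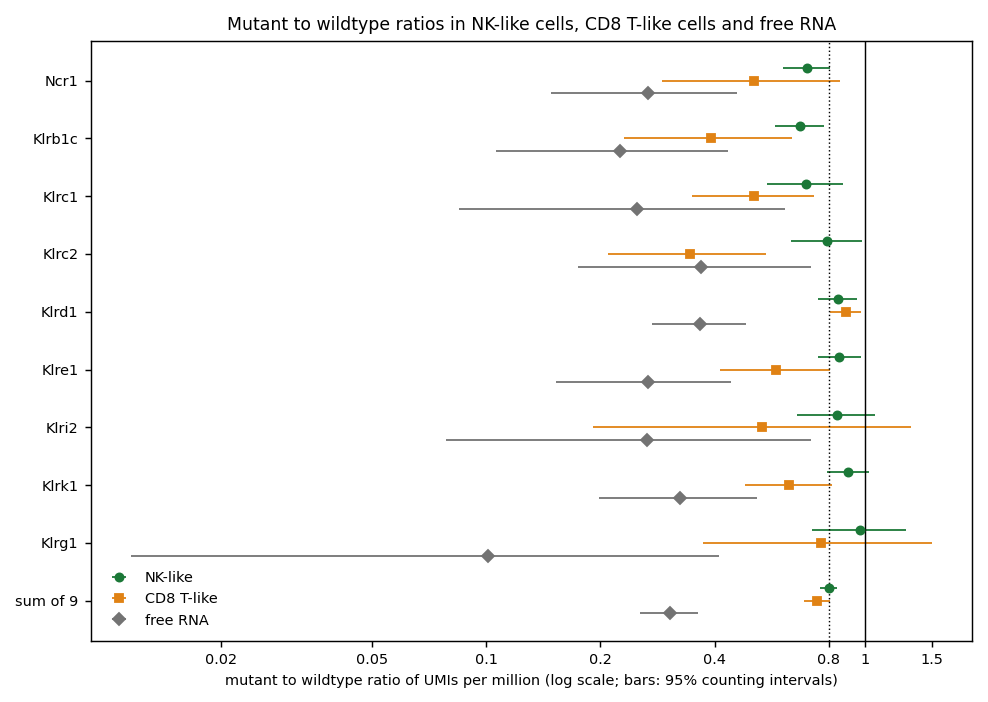
Mutant to wildtype ratio of the level of each receptor gene and of their sum (x axis, log scale) in NK-like cells (circles), CD8 T-like cells (squares) and free RNA (diamonds), with 95% counting intervals. The solid line marks 1 and the dotted line the ratio of 0.8: NK-like values lie between 0.672 and 0.970, and those of free RNA between 0.101 and 0.368.

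Detection per cell showed the same order between the libraries. Thinned to 800 UMIs a cell, each of the 9 genes was found in a smaller share of mutant than of wildtype NK-like cells, such as Klrb1c in 45.0% against 58.1%, Ncr1 in 49.6% against 59.7% and Klrd1 in 57.3% against 70.7%. Without thinning the shares were 75.6% and 81.2% for Klrb1c and 84.0% and 89.5% for Klrd1. Klrk1 was found in 57.3% and 61.7% of thinned cells. Klrg1 was found in 13.0% and 15.5% of thinned but 35.1% and 28.2% of unthinned cells, an order that turned with depth.

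A median of 6 of the 9 genes was detected in an NK-like cell of either library, and 4 after thinning. All 9 were seen in 2 mutant and 10 wildtype cells. At least 3 genes were seen in 92.4% of mutant and 97.6% of wildtype NK-like cells, or 72.5% and 89.0% after thinning. The same was true of 24 of 854 mutant and 84 of 1239 wildtype CD8 T-like cells, and of 0 B-like cells.

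**Figure D3:**
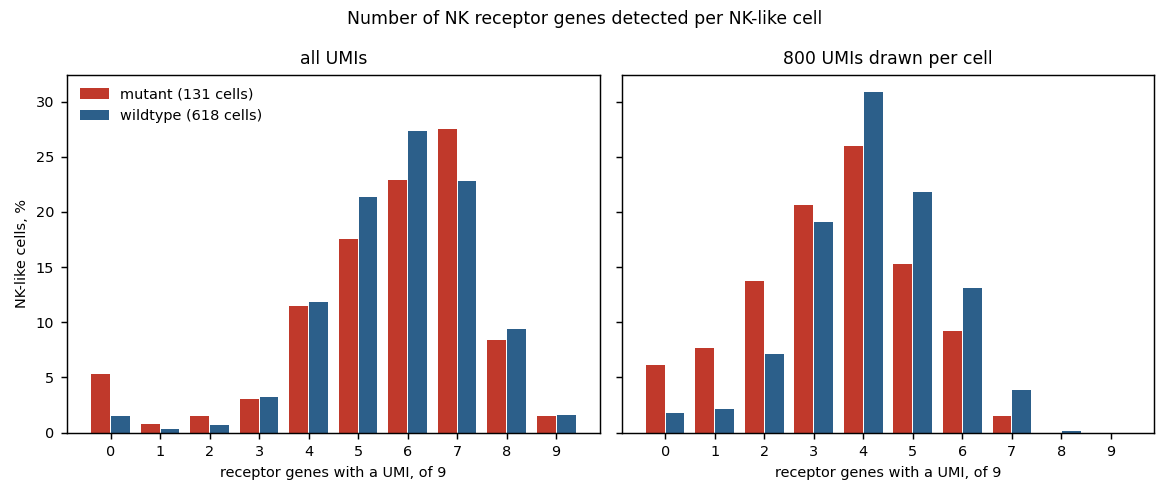
Share of NK-like cells (y axis, %) by the number of the 9 receptor genes with a UMI (x axis), for all UMIs (left) and for 800 UMIs drawn per cell (right), mutant in red (131 cells) and wildtype in blue (618 cells). Both libraries have a median of 6 genes at full depth and of 4 after thinning, and a larger share of mutant than of wildtype cells shows 0 to 2 genes.

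Within NK-like cells, detection of 1 receptor was next compared with that of another. Over the 72 ordered pairs of genes in thinned wildtype cells, the share of cells with the second gene differed between cells with and without the first by -8.86 to 10.8 percentage points, with a median of 1.02, and for 0 pairs did the intervals lie apart. In the 131 thinned mutant cells the median was 7.63 points, again with 0 pairs apart. Without thinning the medians were 6.66 (wildtype) and 17.0 points (mutant), and the intervals lay apart for 12 wildtype and 14 mutant pairs. The widest difference in thinned wildtype cells, an extreme of 72 pairs, was that of Klrd1 by Klrc1. Of the thinned wildtype cells with Klrc1, 78.8% (71.6 to 84.8) had Klrd1, against 67.9% (63.4 to 72.2) of those without, and these intervals overlap. Klrc2 was in 33.1% of the thinned wildtype cells with and 33.4% of those without Klrc1. Without thinning the widest wildtype difference was 18.1 points, for Klrc2 in cells with against without Klrd1.

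Klrg1 was compared between NK-like cells with and without a UMI of 4 maturity genes, splits that were added after the data were seen. In wildtype NK-like cells it stood at 135 CPM in the 77 cells with a UMI of Cd27, which mature NK cells lose, and at 258 CPM in the 541 without, a ratio of 0.522 (0.313 to 0.825). In the 15 mutant cells with a Cd27 UMI it had 0 UMIs, which allows up to 86.8 CPM (3 counts). With a UMI of Ly6c2, which mature NK cells gain, Klrg1 was at 298 CPM against 196 CPM without in the wildtype library (1.52-fold, 1.18 to 1.96), and at 276 against 226 CPM in the mutant (1.23-fold, 0.595 to 2.33). With a Cx3cr1 UMI it was higher in both, 2.11-fold (1.34 to 3.20) in the wildtype and 2.51-fold (1.14 to 4.98) in the mutant library, where 8 cells had one. With a UMI of Itgam, which mature NK cells carry, the intervals include 1, at 1.14-fold (0.825 to 1.54) in the wildtype and 1.18-fold (0.612 to 2.14) in the mutant library.

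A smaller part of mutant NK-like cells had a Ly6c2 UMI, 17.6% (23 cells) against 46.6% (288 cells). Klrb1c was higher in cells with than without one in both libraries, 1349 against 1029 CPM in the wildtype (1.31-fold, 1.17 to 1.47) and 1129 against 721 CPM in the mutant (1.57-fold, 1.11 to 2.17). Ncr1 was about level in the wildtype, at 1221 and 1193 CPM. Among the cells without a Ly6c2 UMI alone, the mutant to wildtype ratio was 0.686 (0.580 to 0.807) for Ncr1 and 0.701 (0.586 to 0.834) for Klrb1c, and among those with one it was 0.811 (0.581 to 1.11) and 0.837 (0.613 to 1.12). For Klrc1 the order was the other way, with 0.784 (0.600 to 1.02) without and 0.526 (0.268 to 0.936) with a Ly6c2 UMI, and for Klrc2 the ratios were 0.803 (0.626 to 1.02) and 0.683 (0.367 to 1.17). Split by Cd27, the ratio of Ncr1 was 0.665 (0.568 to 0.775) in cells without a UMI, while in the 15 mutant and 77 wildtype cells with one Ncr1 stood at 983 and 978 CPM (ratio interval 0.671 to 1.47). All these pairs of intervals overlap, and the differences between the splits were not tested.

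CD8 T-like cells held Klrd1 well above background. It stood at 309 CPM (286 to 334) in mutant and 349 CPM (329 to 370) in wildtype cells, and 45.2% and 52.5% of these cells had a UMI, against 3.68% and 6.26% of B-like cells. The median CD8 T-like cell was deeper, with 2405 and 2545 UMIs, and after thinning the shares were 18.5% and 23.1%, against 1.40% and 3.55% of B-like cells. In the CD8 T-like cells with at most 1 NK marker UMI, the limit that B-like cells meet too, Klrd1 stood at 292 and 325 CPM. Klrd1 made up 71.9% (68.9 to 74.8) of the mutant and 60.5% (58.2 to 62.7) of the wildtype UMIs of the 9 genes in CD8 T-like cells. It made up 20.2% and 19.1% of them in NK-like cells and 41.1% and 34.1% in free RNA, so the CD8 T-like signal did not have the proportions of either. Klrc1, Klrc2 and Klrk1, which take part in CD8 T cell responses too, were found in 2.46%, 1.87% and 4.92% of mutant and 5.65%, 5.49% and 8.31% of wildtype CD8 T-like cells. B-like cells showed them in 0.254%, 0.127% and 0.381% and in 1.02%, 0.508% and 2.03%.

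**Figure D4:**
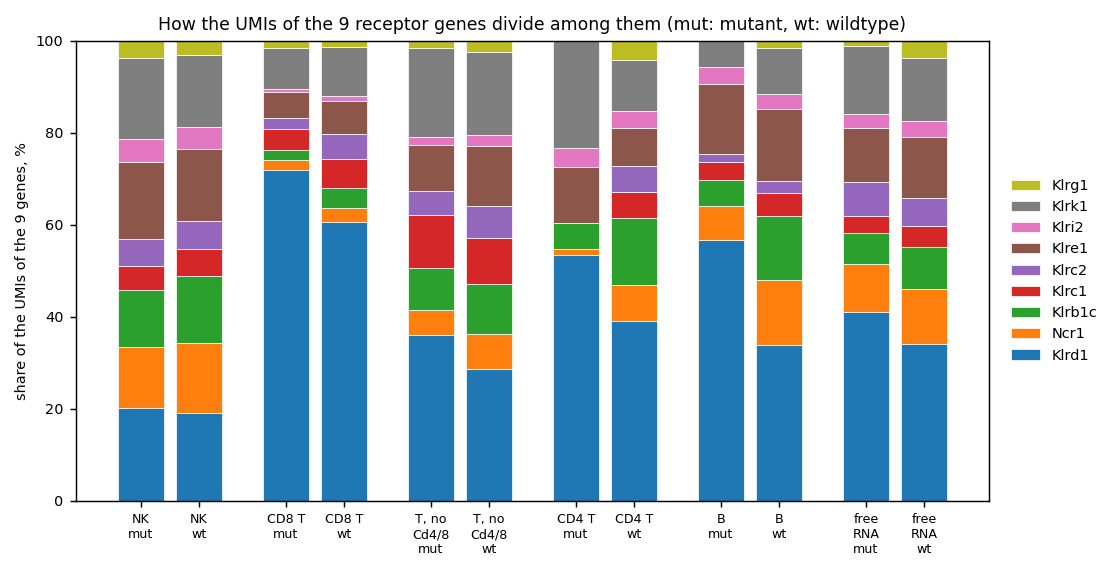
Share of the summed UMIs of the 9 receptor genes (y axis, %) that each gene takes in a cell type or in free RNA, with a bar for each library. Klrd1, the lowest segment, takes 71.9% and 60.5% in CD8 T-like cells and 20.2% and 19.1% in NK-like cells.

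Each receptor other than Klrd1 was found in few CD8 T-like cells, from 0.468% (Klri2) to 4.92% (Klrk1) in the mutant. In the wildtype library the shares ran from 1.29% to 8.31% for the same genes. Whether they shared cells is described here for the pair of Klrc1 and Klrc2 only. Klrc2 was found in 44.3% (32.4 to 56.7) of the 70 wildtype cells with a Klrc1 UMI and in 3.17% of those without, and in 33.3% of 21 and 1.08% in the mutant. After thinning the wildtype shares were 13.8% (3.89 to 31.7) of 29 cells and 2.23%. Klrc1 and Klrc2 share sequence at their 3' ends, so this pair carries the uncertainty of the split between them. At least 5 NK marker UMIs were held by 16 mutant (1.87%) and 52 wildtype CD8 T-like cells (4.20%), which carried 17.8% and 21.2% of the receptor UMIs of the class. That share is over all 9 genes, with Klrd1 at 71.9% and 60.5% of the UMIs, so it does not measure the other genes alone. Whether the cells with at least 5 NK marker UMIs are T cells with NK genes or droplets with both cells was not tested. Some of the genes were also higher in cells with a UMI of Cxcr3, a chemokine receptor of memory and effector T cells, in a split chosen with earlier results of these data known. Cells with a Cxcr3 UMI were deeper, with medians of 3041 (mutant) and 3413.5 UMIs (wildtype) against 2362 and 2480. There Klrk1 stood at 163 against 46.9 CPM without (3.48-fold, 2.55 to 4.70) in the wildtype and at 116 against 29.4 CPM (3.95-fold, 2.38 to 6.39) in the mutant library. Klrc1 stood at 84.0 against 30.7 CPM (2.74-fold, 1.79 to 4.11) and 62.5 against 13.9 CPM (4.49-fold, 2.18 to 8.87). Klrd1 differed less, at 388 against 344 CPM (1.13-fold, 0.948 to 1.34) and 411 against 298 CPM (1.38-fold, 1.10 to 1.72). Klre1 stood at 76.6 against 36.5 CPM and 53.6 against 20.6 CPM, with both ratio intervals above 1. Klrc2 stood at 56.8 against 27.2 CPM and, with a mutant interval that includes 1, at 26.8 against 8.77 CPM (3.06-fold, 0.987 to 8.13). For Ncr1, Klrb1c, Klri2 and Klrg1 the wildtype intervals include 1. With a Cxcr3 UMI wildtype Ncr1 was lower, at 12.3 against 19.0 CPM, and so was Klri2, at 2.47 against 6.55 CPM. In the mutant library such cells had higher Ncr1 (3.71-fold, 1.17 to 10.3), Klrb1c (4.33-fold, 1.48 to 11.5) and Klri2 (11.5-fold, 1.95 to 78.8). Mutant Klrg1 was at 3.46-fold, with an interval that includes 1. The mutant cells with a Cxcr3 UMI held only 4 to 7 UMIs of each of these genes.

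**Figure D5:**
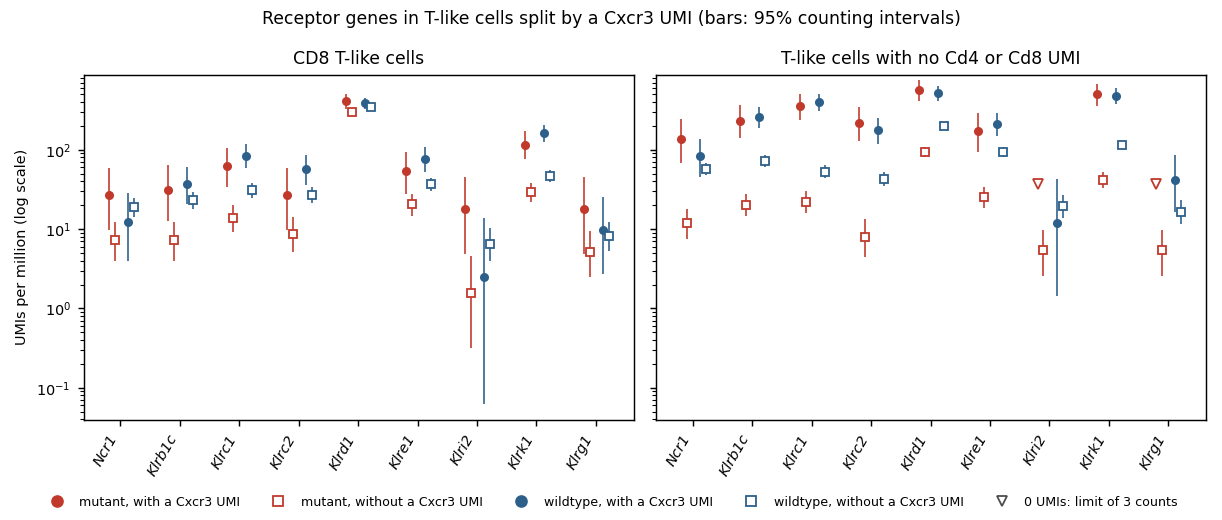
Levels of the 9 receptor genes (y axis, CPM, log scale) in CD8 T-like cells (left) and in T-like cells with no Cd4 or Cd8 UMI (right), with (filled circles) and without (open squares) a Cxcr3 UMI, mutant in red and wildtype in blue, with 95% counting intervals and open triangles as the limit of 3 counts at 0 UMIs. Klrc1 and Klrk1 lie higher in the cells with a Cxcr3 UMI in both panels and both libraries.

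Between the libraries, 7 of the 9 genes reached 50 UMIs in CD8 T-like cells, and 6 of these 7 were lower by the same ratio, with 0 higher. Over all 6705 measured genes of the class, 10.4% were lower and 11.6% higher. Klrc2 was at 0.345 (0.209 to 0.546), with 10.6 against 30.8 CPM, and Klrb1c at 0.391 (0.230 to 0.638), with 9.71 against 24.8 CPM. Ncr1 and Klrc1 were both at 0.510, Klre1 was at 0.580 (0.413 to 0.804) and Klrk1 at 0.628 (0.480 to 0.815). Wildtype Ncr1 stood at 18.1 CPM in CD8 T-like and 17.7 CPM in B-like cells (1.03-fold, 0.591 to 1.88). It was thus not beyond counting error above that background. In the mutant Ncr1 stood at 9.25 and 3.03 CPM (3.05-fold, 1.02 to 12.3). Klrb1c stood at 17.7 CPM in wildtype and 2.27 CPM in mutant B-like cells. Klrd1 was at 0.886 (0.805 to 0.976) and did not pass. In thinned cells it did, at 0.7996, and 3 genes were then measured. Klri2 had 7 and 20 UMIs and Klrg1 14 and 28, under the minimum.

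The NK marker sum moved with these genes, at 451 CPM in mutant and 710 CPM in wildtype CD8 T-like cells, as did free RNA, in which the 6 genes had ratios of 0.225 to 0.368. Red cell RNA went the other way, at 5484 against 926 CPM. With the free RNA profile subtracted, Ncr1 turned to 1.26, while the other 5 stayed at 0.303 to 0.756. In the 780 mutant and 859 wildtype CD8 T-like cells with at most 1 NK marker UMI, Klrk1 was at 0.547 (0.339 to 0.866), with 15.0 against 27.5 CPM. There Klre1 was at 0.289 (0.144 to 0.538). Klrc1 at 0.661 (0.366 to 1.16) and Klrd1 at 0.896 (0.801 to 1.003) had intervals that include 1. How far free RNA and mixed droplets enter the ratios was not tested beyond these values.

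In T-like cells with no Cd4 or Cd8 UMI (967 mutant, 1042 wildtype), 9 of 9 genes were lower in the mutant, as were 13.7% of 6099 measured genes. Klri2 (10 mutant, 42 wildtype UMIs) and Klrg1 (10 and 41) only just passed the minimum for a measured gene. With so few mutant UMIs they could pass only through a higher wildtype count, so their calls are not informative. Ratios of the other genes ran from 0.285 for Ncr1 to 0.504 for Klrd1. Klrk1 stood at 61.3 against 143 CPM and Klrc1 at 36.0 against 79.4 CPM. The NK marker sum was 398 against 1698 CPM in this class and red cell RNA 19661 against 2633 CPM. At least 5 NK marker UMIs were held by 14 mutant and 80 wildtype cells, with 28.5% and 56.8% of the receptor UMIs. In a sum over a class, fewer such cells and less RNA per cell cannot be told apart. Per cell, Klrk1 had a UMI in 5.27% of mutant and 12.6% of wildtype cells, with means of 2.33 and 2.42 UMIs in those. Klrc1 was found in 3.00% and 7.39% of cells (means of 2.41 and 2.29), and Klrd1 in 15.3% and 23.6% (1.49 and 2.03). The part of each in the ratios was not tested. Among cells with a Cxcr3 UMI (32 mutant, 62 wildtype) the mutant to wildtype ratios had intervals that include 1, at 0.900 (0.561 to 1.41) for Klrc1, 1.05 (0.705 to 1.55) for Klrk1 and 1.10 (0.752 to 1.59) for Klrd1. The level of Klrk1 was 503 and 477 CPM in these cells, against 41.9 and 115 CPM in the cells without, and Klrc1 was 16.1-fold (9.67 to 26.6) and 7.42-fold (5.39 to 10.1) higher with a Cxcr3 UMI than without.

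The remaining types gave few UMIs. In B-like cells Klrd1 alone reached 50 UMIs and was lower, with 22.7 against 42.6 CPM (0.533, 0.321 to 0.874), as were 11.3% of 4778 measured genes, and its free RNA ratio was 0.366 (0.274 to 0.484). In CD4 T-like cells Klrd1 was at 75.9 and 83.1 CPM (0.913, 0.591 to 1.40) and in 10.7% and 12.9% of cells. In monocyte-like cells (66 mutant, 82 wildtype) Klrk1 had 11 UMIs in 7 mutant cells and 3 UMIs in 3 wildtype cells, Klrd1 had 14 and 35 UMIs, and the other 7 genes had 0 UMIs in the mutant, which allows up to 15.6 CPM.

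The genes around these receptors were read from lists of adaptors, other NK receptors, ligands and maturation genes, some of which (Tyrobp, Fcer1g, S1pr5, Eomes, Klra4, Klra8 and Klra9) also set the NK gate. In NK-like cells 3 of 14 measured adaptor and signalling genes were lower by the fold and 0 higher, a share near that of all measured genes of the class (23.7% lower, 13.9% higher). The adaptors that carry the signal of NKG2D, Hcst (794 and 843 CPM, 0.942, 0.808 to 1.10) and Tyrobp (3822 and 4012 CPM, 0.953, 0.889 to 1.02), were near 1. The adaptor gene Fcer1g (3406 and 4127 CPM, 0.825, 0.768 to 0.886) had an interval below 1 but did not reach the fold. Those that passed were the phosphatase gene Ptpn6, which inhibitory receptors recruit, at 0.560 (0.360 to 0.841), Ptpn11 at 0.788 and Lcp2 at 0.695, the last pair with intervals that include 1. Of 15 other NK receptor genes 7 were lower and 0 higher, with a median log2 ratio of -0.26, beside 23.7% lower and a median of -0.04 over all measured genes. The Ly49 genes did not move as 1 group: Klra9 was at 0.482 (0.408 to 0.566) and Klra8 at 0.735 (0.633 to 0.849), while Klra7 was at 1.18 (1.04 to 1.35). Slamf7 was at 0.563 (0.351 to 0.866). These Ly49 genes are known to be near-identical in places, but stretches shared among them were not searched for here. Their values may carry the same kind of uncertainty as Klrc1 and Klrc2.

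Of 17 measured maturation genes 4 were lower, near the 23.7% of all genes, and 5 were higher, beside 13.9% of all genes. Ly6c2 was at 0.382, with 301 against 787 CPM, the egress receptor gene S1pr5 at 0.572 (0.367 to 0.859) and the chemokine gene Xcl1 at 0.635 (0.472 to 0.840), while Thy1 was at 1.79 (1.15 to 2.71), Ctla2a at 1.76 (1.40 to 2.20) and Cd7 at 1.34 (1.09 to 1.63). Cd27 (0.895, 0.522 to 1.47), Eomes (0.935, 0.695 to 1.24) and Tbx21 (0.997, 0.687 to 1.42) did not reach the fold. Of the ligand genes 5 of 16 were measured in NK-like cells and 0 passed the fold. H2-T23, whose product Qa-1 is bound by the CD94 pairs, stood between 130 and 172 CPM in the 5 mutant types and between 143 and 184 CPM in the wildtype ones, with overlapping intervals in each type. In CD8 T-like cells 2 of 12 adaptor genes were lower, Tyrobp (0.606, 0.501 to 0.730) and Fcer1g (0.511, 0.417 to 0.623), both NK markers, while Hcst was at 0.929. There 8 of 11 other NK receptor genes, 1 of 8 ligand genes and 1 of 12 maturation genes were lower, beside 10.4% of all measured genes of the class, which the ligand and maturation counts are near.

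Across the 10 sums of 5 types in 2 libraries, which share library and free RNA, the 9 genes had similar profiles. The Pearson r of log2(CPM + 10) between members ran from 0.848 for Klrd1 and Klri2 to 0.996 for Klrc1 and Klrc2, with a median of 0.970 over 36 pairs. Among 8628 other genes, those most like the summed level of the 9 were Ifitm10 (0.986), Gzma (0.978), Baiap3 (0.977), Ccl5 (0.976) and Eomes (0.975). Gzma and Eomes are among the markers that set the NK gate, so their likeness is partly built in by it. Klrc1 and Klrc2 were most like Xcl1 and Sytl3 (0.993 to 0.996), Ncr1 most like Serpinb9 (0.990), Klrk1 most like Nr4a2 (0.976) and Klrd1 most like Ifitm10 (0.977). With 10 points led by the NK-like sums, these values are a description only.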

How the data were processed

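PBMC of 2 libraries were measured by 10x Chromium 3' v2 sequencing, and, per the submitters' processing notes, Cell Ranger 2.1.1 and mm10 were used. The deposited matrices hold raw UMI counts for 27998 genes and 737280 barcodes, the complete barcode list. From these counts, Python 3.11.15 (numpy 2.4.6, scipy 1.17.1, pandas 2.3.3) kept cells, set types by marker UMIs, summed UMIs per type and library and gave CPM with exact Poisson, shares with exact Clopper-Pearson and ratios with exact conditional 95% intervals.

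T-like cells had at least 2 Cd3 UMIs, B-like cells at least 3 and monocyte-like cells at least 5 UMIs of their markers, and UMIs of other lineages were limited to 1 in most types. No doublet caller was run. 1099 mutant and 1281 wildtype cells stayed untyped. A gene was measured with at least 50 UMIs over both libraries. A 0 is limited by 3 counts in the total. Cells were thinned by drawing 800 UMIs. The members and lists, the named genes (all members, and list members with 50 UMIs) and the settings were chosen with earlier results of these data known. The intervals were tested on simulated Poisson counts. These hold no spread between cells, mice or libraries, so that test covers counting error only. Gene positions are from GENCODE M21.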

Additional observations from a re-analysis of the deposited data

How the results depend on the processing

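Of the 135 alternative values for single genes in NK-like cells, 134 moved by less than their interval, while Klri2 moved to 0.658 when cells were thinned. The 4 called genes stayed below 1 in each, but Klrg1, which was not called, was above 1 in 4 of 15 settings (0.761 to 1.02 over all). The count of lower genes, 4 of 9, was 7 when cells were thinned to 800 UMIs and 0 at a fold of 1.5, and lay between 3 and 4 in the other 15 settings, of which 3 were added after seeing the data. In CD8 T-like cells the count of 6 was 3 after thinning (of 3 measured), 1 with at least 200 UMIs per gene (of 2) and 3 in cells with at most 1 NK marker UMI (of 4, added after seeing the data), since fewer genes were measured. Of 112 values for single genes there, 2 moved and 1 reversed. Ncr1 reversed to 1.26 with free RNA subtracted. Before the subtraction it stood at 9.25 (mutant) and 18.1 CPM (wildtype), from 20 and 60 UMIs, beside 43.0 and 161 CPM in free RNA. The value of 1.26 thus compares the small levels left after subtraction, and the cause was not tested. The median number of receptor genes per NK-like cell was 4 after thinning in both libraries. With 1 CPM in place of 10 CPM added before the logarithm, 2 of the 5 genes most like the sum were kept. The NK-like share had a ratio of 0.254 to 0.282 under every gate and filter tried. No paired analysis was possible because each genotype has 1 library. The 131 mutant NK-like cells, with 269504 UMIs, limit the precision of the NK-like values.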
